A study of Mus musculus with 9 samples.

Results

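The collagen genes were studied in the livers of middle-aged female mice. A probe set was taken as a collagen where the array annotation gave it a single gene symbol made of Col, a type number, the letter a and a chain number. This rule selected 44 genes of 19935, measured by 46 of the 28815 probe sets, 21780 of which carried 1 gene symbol. Gene expression had been measured with Affymetrix Mouse Gene 1.0 ST arrays in 3 groups of 3 mice, with 1 mouse per array. WTCR livers came from wild-type mice on a short-term calorie restricted diet. Dgat1-/-AL livers came from mice null for Dgat1, which encodes an enzyme of triglyceride synthesis, fed ad libitum. WTAL livers came from wild-type mice fed ad libitum. All mice were females of 15 to 16 months on the C57BL/6J background. The study gives standard chow as its diet and says that WTCR mice were switched to a CR diet, whose composition it does not state. The deletion is not restricted to the liver, and total RNA of liver tissue was used, so the RNA of all its cell types was measured together.

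Collagens are extracellular proteins built from 3 chains wound into a helical trimer, and each chain has its own gene. Fibrillar collagens (types I, III and V among others) form the fibers of the portal tracts, the capsule and scars. Type IV collagens form the network of basement membranes, and the multiplexins (types XV and XVIII) attach to that network. Type VI forms beaded filaments between fibers and cells. FACIT collagens, such as type XIV, bind to the surface of fibrils without making fibrils themselves. In liver, hepatic stellate cells and portal fibroblasts are the main source of fibrillar collagen, endothelial cells contribute type IV chains, and hepatocytes are known to make type XVIII.

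The upstream sequence of Col3a1, which encodes the type III chain and was at 3 levels that did not overlap between the groups, is shown beside that of Col1a2, which encodes a type I chain of the same fibers and did not pass the test. Both are the 250 bases before the RefSeq gene start on the plus strand of GRCm38.p6, chr1:45311288-45311537 for Col3a1 and chr6:4505368-4505617 for Col1a2. Capitals mark matches on either strand to TATAAA (the core of a TATA box), CCAAT and GGGCGG (the core of a GC box).
Col3a1: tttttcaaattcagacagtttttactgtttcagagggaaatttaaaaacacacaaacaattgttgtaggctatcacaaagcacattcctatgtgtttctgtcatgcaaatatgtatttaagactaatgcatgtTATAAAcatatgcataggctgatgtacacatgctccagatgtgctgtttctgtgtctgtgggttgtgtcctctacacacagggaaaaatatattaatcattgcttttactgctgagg
Col1a2: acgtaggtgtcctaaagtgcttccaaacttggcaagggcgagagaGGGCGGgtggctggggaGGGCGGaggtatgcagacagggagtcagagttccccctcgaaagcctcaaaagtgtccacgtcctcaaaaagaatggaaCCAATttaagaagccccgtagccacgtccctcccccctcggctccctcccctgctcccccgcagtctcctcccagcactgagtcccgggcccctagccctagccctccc
The Col3a1 stretch held 1 match, a TATAAA whose first base is at -117 from the gene start. Col1a2 held GGGCGG at -205 and -188 and CCAAT at -109, with no TATAAA. RefSeq promoter windows, which run from 250 bases before to 50 after the start, were matched for 35 of the 44 genes (38 windows), and no 2 matches to different motifs overlapped in them. Col1a1 and Col14a1 were among the genes without such a window. Among these 38 windows TATAAA stood in 13.2% (13.6% of all 32851 windows of that length), CCAAT in 34.2% (37.4% of all) and GGGCGG in 60.5% (35.7% of all). Col4a1 and Col4a2, which encode the chains of the common type IV trimer, lie head to head on chromosome 8 of that build, Col4a1 on the minus and Col4a2 on the plus strand, and the first 22 bases of their transcripts overlap.

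Whether the labels held was checked with Dgat1 itself. Its log2 signal was 8.56 to 8.89 in WTCR and 5.39 to 6.14 in Dgat1-/-AL livers. WTAL replicates 1 and 3 gave 7.86 and 8.04, and WTAL replicate 2 gave 5.67. The array labelled WTAL replicate 2 thus lay among the Dgat1-/-AL arrays and went against its label, and it is called so throughout. Dgat1-/-AL replicate 1 stood apart on the second principal component of all probe sets, with a score of -42.1 against -15.9 to 15.3 for the other arrays. The 9 hepatocyte markers measured had mean log2 signals of 11.5 to 14.2, and none passed the rule given below in any comparison.

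The first question was which collagens were measurable at all. All values are log2 signals after robust multi-array averaging (RMA). A probe set counted as near background where its mean over the 9 arrays was at or below 5.22, the 95th percentile of 1204 probe sets for olfactory and vomeronasal receptors, genes that liver is not known to use. Of the 46 collagen probe sets 42 lay above this bound, and all probe sets of 2 genes lay below it. These were Col12a1 (4.59), a FACIT collagen of tendon, and Col28a1 (4.99), a collagen related to type VI. Col6a5 and Col6a6, chains of type VI, each had 1 probe set above the bound (5.90 and 6.89) and 1 below it (3.83 and 4.45), so their probe sets disagreed on whether the gene was detected.

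The bound decides much of this count. Against the 99th percentile of the receptors (6.16), 19 genes had no probe set above it, and against the median of all probe sets (5.83) 12 genes had none. Every fibrillar, basement membrane and multiplexin probe set passed the first bound, but only 8 of 11 fibrillar and 2 of 6 type IV probe sets (Col4a1 and Col4a2) passed the 6.16 bound. Col4a3, Col4a4, Col4a5 and Col4a6, which encode type IV chains known from kidney and other specialized basement membranes, lay between 5.55 and 5.99. Among collagens known mainly from cartilage or skin, 10 probe sets chosen after their values were seen (for example Col2a1, Col9a2, Col10a1 and Col17a1) lay between 5.55 and 7.32. Col1a1 (6.93), Col3a1 (7.08), Col4a1 (6.75) and Col4a2 (6.81) lay in the same range, and Col1a2 (7.44) just above it. Whether signals in that range exceed nonspecific hybridization of the same probes was not tested.

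**Figure D1:**
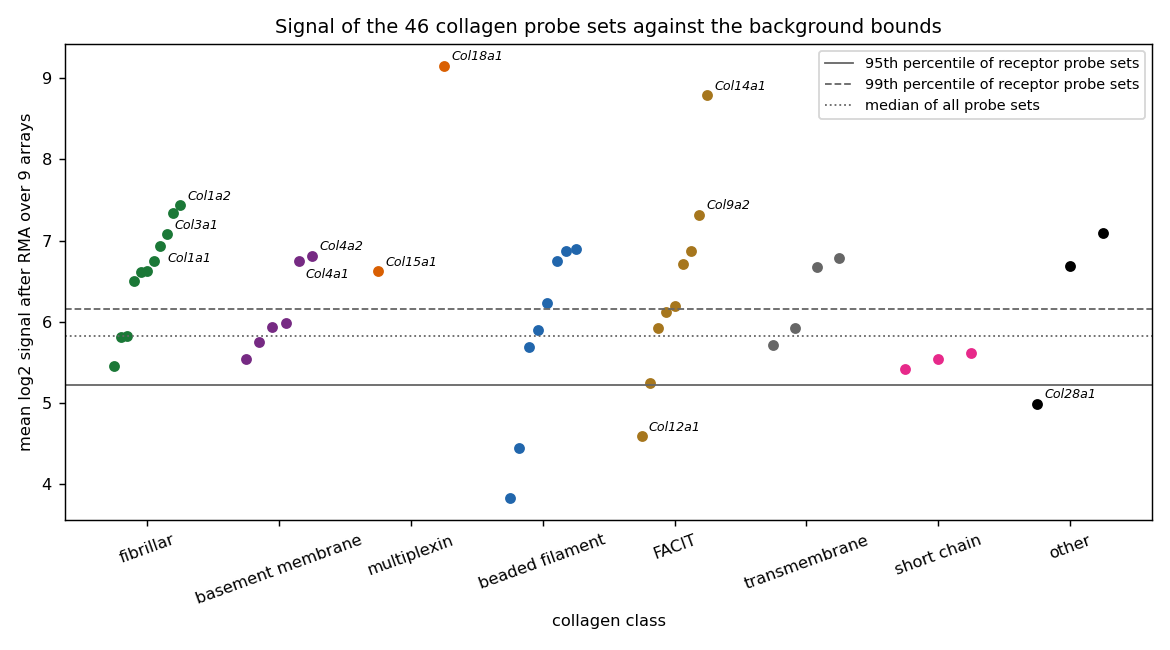
Mean log2 signal after RMA over the 9 arrays (y axis) of each of the 46 collagen probe sets, by collagen class (x axis), with the bounds at 5.22, 5.83 and 6.16 as horizontal lines. Col14a1 and Col18a1 stand above all others, and 4 probe sets lie below the lowest bound.

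Many collagen probe sets barely varied. In 30 of the 46 (65.2%) the same log2 value, in every decimal given, was listed for at least 3 of the 9 arrays, against 37.0% of all probe sets. In 16 (34.8%, against 9.46% of all) at least 5 arrays shared one value. Col4a5, a type IV chain gene of the X chromosome, was listed at 5.75 on 8 arrays. RMA summarizes the probes of a set by median polish, which can return one value for several arrays, so the spread of such a gene is not a measure of how alike the mice were. The median SD within groups was 0.0703 for collagens and 0.128 for all probe sets, and only 7 collagen probe sets spanned more than 0.5 over the 9 arrays.

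Calorie restriction was compared with ad libitum feeding first. Col3a1 and Col14a1 fell in WTCR livers, no collagen rose, and the type I chains did not pass the test. A difference was called at a fold over 1.3 with an unadjusted p under 0.05 from limma, the rule the study used, fitted over all probe sets, with the Benjamini-Hochberg adjusted p given beside it. By this rule 2 of the 46 collagen probe sets were lower (4.35%), against 3.81% of all probe sets, and 0 were higher, against 4.25% of all. The count of lower collagens was thus close to the background of this comparison. At an unadjusted p with no fold minimum 2 were lower, against 6.69% of all. The same 2 had an adjusted p under 0.05, against 1.41% of all called lower and 1.62% called higher in that way. The median log2 fold change was -0.03 over the collagens and 0.00 over all probe sets, and 31 of the 46 values were negative (67.4%, against 49% of all probe sets), 13 positive and 2 exactly 0.

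Col14a1 encodes the FACIT collagen XIV, which sits on the surface of type I fibrils. Its log2 signal was 8.43, 7.71 and 7.81 in WTCR livers, 9.04, 9.25 and 9.04 in Dgat1-/-AL livers and 9.12, 9.34 and 9.37 in WTAL livers. All 3 WTCR arrays lay below all 6 others, and the other groups overlapped. The mean was 7.98 ± 0.39 in WTCR and 9.28 ± 0.14 in WTAL (SD, n = 3 each), 2.45-fold lower in WTCR (a log2 difference of -1.29 ± 0.18, SE, adjusted p = 0.0126 from limma). The call held when each of the 9 arrays was left out in turn, with log2 fold changes of -1.51 to -1.16. The limma adjusted p was 0.0583 without WTAL replicate 3 and 0.00715 to 0.0477 without any other single array. WTCR replicate 1 was the highest of its group, and without it the value was -1.51.

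Col3a1 encodes the only chain of collagen III, which forms thin fibers together with type I. Its log2 signal was 6.75, 6.81 and 6.78 in WTCR livers, 7.14, 7.13 and 7.10 in Dgat1-/-AL livers and 7.30, 7.32 and 7.38 in WTAL livers. The groups formed 3 steps that did not overlap, with WTCR lowest and WTAL highest. WTCR livers averaged 6.78 ± 0.03 and WTAL livers 7.33 ± 0.04 (SD, n = 3 each), 1.47-fold lower in WTCR (a log2 difference of -0.55 ± 0.06, SE, 95% confidence interval -0.68 to -0.43, adjusted p = 0.0048 from limma). With any 1 array left out the value stayed within -0.57 to -0.53. Without the array labelled WTAL replicate 2 it was -0.56.

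The chains that partner collagen III in fibers gave smaller values. Col1a1 signals were 6.78, 6.93 and 6.92 in WTCR, 7.04, 6.93 and 6.95 in Dgat1-/-AL and 6.93, 6.99 and 6.93 in WTAL livers. Col1a2 signals were 7.41, 7.46 and 7.27 in WTCR, 7.58, 7.36 and 7.46 in Dgat1-/-AL and 7.33, 7.51 and 7.59 in WTAL livers. For both type I genes all 3 groups overlapped. The WTCR difference from WTAL was -0.08 for Col1a1 (95% confidence interval -0.23 to 0.08) and -0.10 for Col1a2 (-0.31 to 0.11), so neither interval reached down to the fold minimum, 0.379 on the log2 scale. The same Col1a1 value was listed on 4 of the 9 arrays, so the limit on spread given above applies to its interval. Both intervals describe the measured signal, and how far nonspecific hybridization narrows such differences was not tested. Col5a1 and Col5a2 encode chains of collagen V, which sits inside type I fibrils. Their WTCR values were -0.05 and -0.16, with intervals of -0.19 to 0.10 and -0.34 to 0.02. Col5a2 is the neighbor of Col3a1 on chromosome 1, and its signals overlapped between WTCR (5.35 to 5.43) and WTAL (5.42 to 5.68). The other fibrillar probe sets (Col2a1, Col5a3, Col11a1, Col11a2, Col24a1 and Col27a1) gave -0.03 to 0.05. Of all 11 fibrillar probe sets 1 passed the test, Col3a1.

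**Figure D2:**
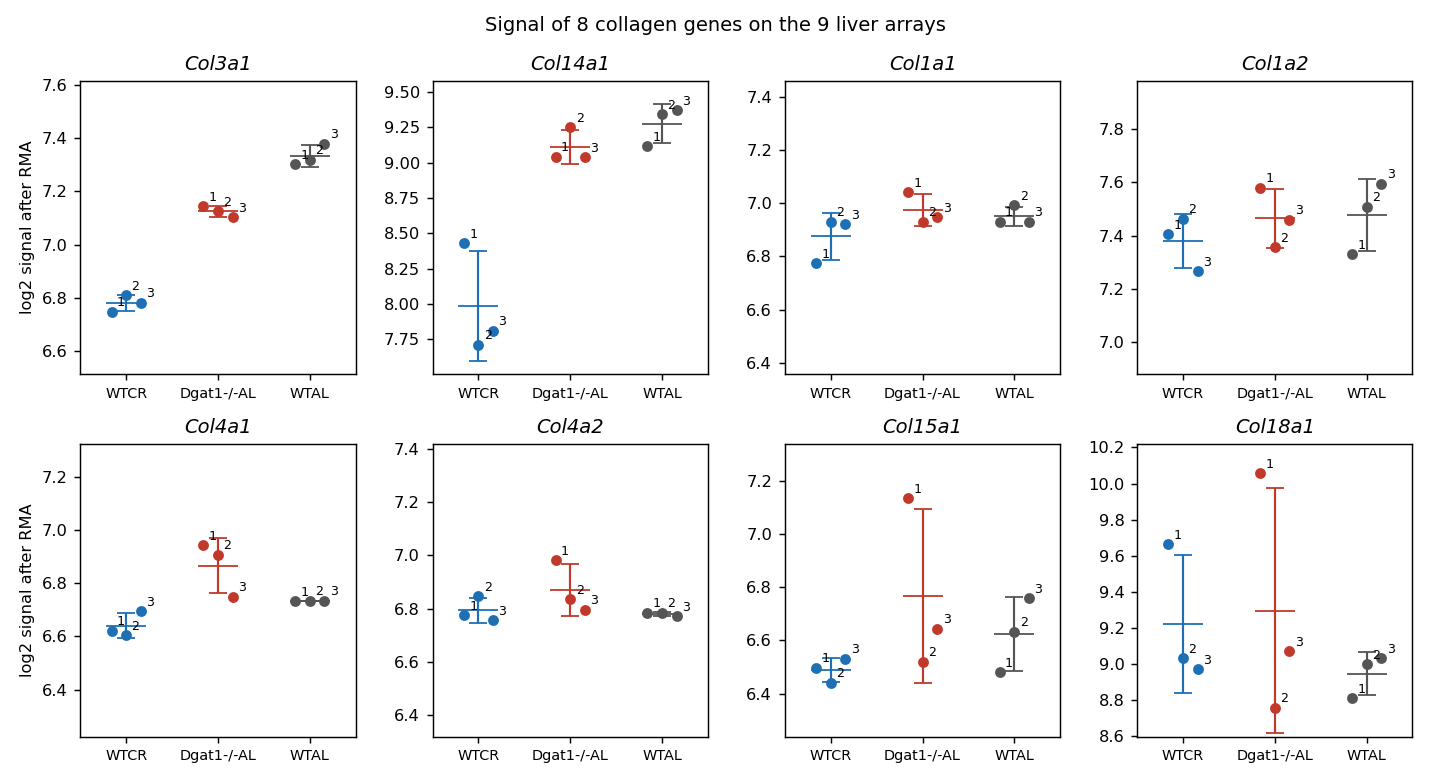
Log2 signal after RMA (y axis, a range of its own in each panel) of 8 collagen genes in each liver, grouped along the x axis, with points numbered by replicate and short lines for group means. Col3a1 forms 3 separate steps, Col14a1 is low on the WTCR arrays, and the highest Col18a1 and Col15a1 values belong to Dgat1-/-AL replicate 1.

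Basement membrane collagens did not pass the rule in WTCR livers. Col4a1 was at 6.62, 6.61 and 6.69 in WTCR livers, at 6.94, 6.91 and 6.75 in Dgat1-/-AL livers and at 6.73 on each of the 3 WTAL arrays. The WTCR arrays lay below all others and the Dgat1-/-AL arrays above all others, but the steps were small, with a WTCR difference from WTAL of -0.09 (95% confidence interval -0.25 to 0.06). Its head-to-head partner Col4a2 was at 6.78, 6.85 and 6.76 in WTCR, at 6.98, 6.83 and 6.80 in Dgat1-/-AL and at 6.78, 6.78 and 6.77 in WTAL livers. For Col4a2 WTCR and WTAL overlapped (0.01, interval -0.14 to 0.16). The remaining 4 type IV genes gave -0.08 to 0.03, and none of the 6 was called.

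Col18a1, which encodes the multiplexin whose C-terminal fragment is endostatin, spanned 1.299 on the log2 scale over the 9 arrays. Its signal was 9.66, 9.03 and 8.97 in WTCR livers, 10.06, 8.76 and 9.07 in Dgat1-/-AL livers and 8.81, 8.998 and 9.03 in WTAL livers. Replicate 1 was the high array in both WTCR and Dgat1-/-AL, and the groups overlapped. Its WTCR difference from WTAL of 0.28 (95% confidence interval -0.44 to 0.99) became 0.05 without WTCR replicate 1. Col15a1, the other multiplexin gene, was at 6.50, 6.44 and 6.53 in WTCR, at 7.13, 6.52 and 6.64 in Dgat1-/-AL and at 6.48, 6.63 and 6.76 in WTAL livers, and its WTCR difference of -0.13 did not pass.

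Among the other classes Col23a1, a transmembrane collagen, was the only further gene whose groups did not overlap between WTCR and WTAL. It was at 6.71, 6.76 and 6.76 in WTCR, at 6.76, 6.64 and 6.76 in Dgat1-/-AL and at 6.82, 6.89 and 6.94 in WTAL livers, and the WTCR difference of -0.14 missed the fold minimum. In all 4 collagen probe sets did not overlap and were lower in WTCR (Col3a1, Col14a1, Col4a1 and Col23a1), which is 8.70% against 8.44% of all probe sets, and 0 did not overlap and were higher, against 11.2% of all. The type VI chains Col6a1, Col6a2 and Col6a3, the usual trimer of that type, gave -0.03, -0.04 and -0.15, and the other type VI probe sets -0.05 to 0.12. FACIT collagens other than Col14a1 ranged over -0.13 (Col9a2) to 0.06 (Col9a1). The other transmembrane collagens (Col13a1, Col17a1 and Col25a1) gave -0.07 to 0.07, the short chain collagens (Col8a1, Col8a2 and Col10a1) -0.08 to -0.02, and Col7a1, Col26a1 and Col28a1 -0.06 to -0.01.

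Loss of Dgat1 was compared with WTAL next, and no collagen passed the rule. Of the 46 probe sets 0 were higher, against 0.465% of all probe sets, and 0 were lower, against 0.76% of all. The median log2 fold change was -0.01, with 29 of the 46 values negative (63%, against 50.8% of all probe sets) and 17 positive. At an unadjusted p under 0.05 with no fold minimum 3 were lower (6.52%, against 2.62% of all), namely Col3a1, Col23a1 and the Col6a6 probe set below the background bound. No probe set of the whole array reached an adjusted p under 0.05 in this comparison with limma, where 1316 had an unadjusted p under 0.05.

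Col3a1 averaged 7.12 ± 0.02 in Dgat1-/-AL and 7.33 ± 0.04 in WTAL livers (SD, n = 3 each), a log2 difference of -0.21 (95% confidence interval -0.33 to -0.08, unadjusted p = 0.00458 and adjusted p = 0.972 from limma). The 1.16-fold difference was below the fold minimum, and it was -0.22 without the array labelled WTAL replicate 2. Col23a1 differed by -0.16 and the Col6a6 probe set by -0.17. Col3a1 and Col23a1 were the 2 collagens with every Dgat1-/-AL array below every WTAL array (4.35%, against 3.86% of all probe sets). Col14a1 differed by -0.17 (interval -0.57 to 0.24), and its groups overlapped. The type I genes lay close to 0, at 0.02 for Col1a1 (-0.13 to 0.17) and -0.01 for Col1a2 (-0.23 to 0.20).

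Col4a1 and Col4a2 were the 2 collagen probe sets with every Dgat1-/-AL array above every WTAL array (4.35%, against 3.16% of all probe sets), by 0.13 (-0.02 to 0.29) and 0.09 (-0.06 to 0.24). Neither reached an unadjusted p under 0.05. Dgat1-/-AL replicate 1 gave the highest value of both genes, and without it the difference was 0.10 for Col4a1 and 0.035 for Col4a2. That array also carried the highest Col18a1 and Col15a1 signals of all 9. The Dgat1-/-AL difference from WTAL was 0.35 for Col18a1 (-0.36 to 1.06) and 0.14 for Col15a1 (-0.20 to 0.48), and without that array it was -0.03 and -0.04, so that 1 mouse set the direction of both multiplexins. Whether this relates to the place of that array on the second principal component was not tested.

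WTCR and Dgat1-/-AL livers were also set against each other. Col14a1 was 2.18-fold lower in WTCR (a difference of -1.13 ± 0.18 on the log2 scale, SE, n = 3 each, limma adjusted p = 0.0167), the 1 collagen called lower (2.17%, against 3.93% of all probe sets), and 0 were called higher, against 4.66% of all. Leaving out any 1 array gave -1.35 to -0.99, and the call held each time, but the limma adjusted p lay between 0.0541 and 0.0694 when the array left out was replicate 2 or 3 of either group. Col3a1 differed by -0.34 (95% confidence interval -0.47 to -0.22, adjusted p = 0.018 from limma), which is 1.27-fold lower in WTCR and below the fold minimum. Without any 1 of the same 4 arrays its limma adjusted p was 0.051 to 0.0653. Col4a1 differed by -0.23 (-0.38 to -0.07, adjusted p = 0.127 from limma). With no fold minimum these 3 were lower at an unadjusted p (6.52%, against 6.87% of all), and Col14a1 and Col3a1 also at an adjusted p (4.35%, against 1.29% of all, with 0 collagens and 1.77% of all probe sets higher). In these 3 genes the WTCR and Dgat1-/-AL arrays did not overlap (6.52% lower, against 7.1% of all probe sets, and 0 higher, against 9.05% of all).

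The comparisons with WTAL share the 3 WTAL arrays, so their values are not independent of each other. Negative values made up 67.4% of the collagens in WTCR and 63% in Dgat1-/-AL livers, each against WTAL. In WTCR against Dgat1-/-AL, which does not use the WTAL means, 24 of 46 were negative (52.2%, against 48% of all probe sets). Set side by side, Col14a1 gave -1.29 in WTCR and -0.17 in Dgat1-/-AL livers, and Col3a1 gave -0.55 and -0.21. For Col14a1 the direct test above places the WTCR livers apart from the Dgat1-/-AL livers by its rule.

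**Figure D3:**
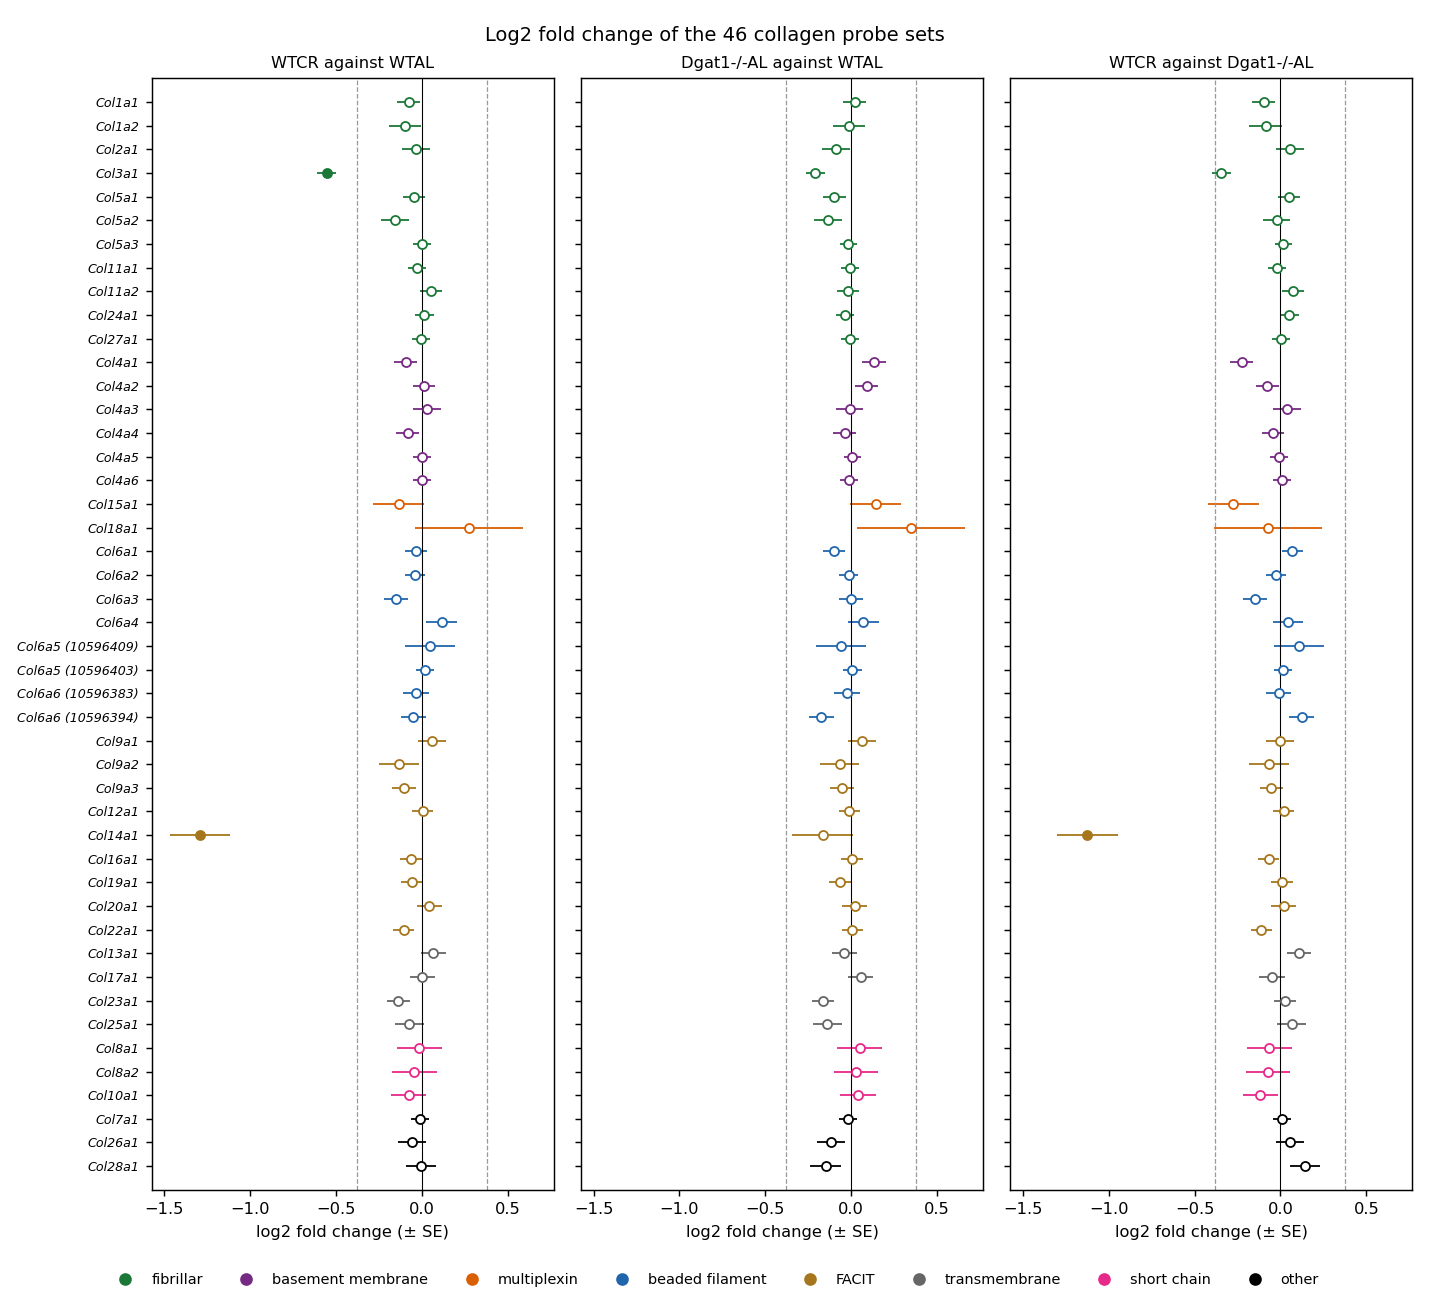
Log2 fold change with its SE (x axis) of the 46 collagen probe sets (y axis, colored by class) for WTCR against WTAL, Dgat1-/-AL against WTAL and WTCR against Dgat1-/-AL. Col14a1 at -1.29 and Col3a1 at -0.55 stand apart on the left in WTCR, and most other points lie close to 0.

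Genes that act on collagen were examined as 4 further lists. Over all probe sets the rule called 3.81% lower and 4.25% higher in WTCR, and 0.76% lower and 0.465% higher in Dgat1-/-AL, each against WTAL, and the counts in each list are to be read against these shares. Collagen maturation covers the hydroxylases, chaperones, proteinases and crosslinking enzymes that turn a chain into fiber, and 26 of its 29 genes were measured. In WTCR livers 3 of the 26 were lower than in WTAL and 0 higher, and in Dgat1-/-AL livers 0 were called. Sparc encodes a collagen-binding matricellular protein and was at 8.45, 8.34 and 8.57 in WTCR, at 9.03, 9.03 and 9.07 in Dgat1-/-AL and at 8.87, 9.001 and 8.93 in WTAL livers. The WTCR arrays lay below both other groups, with a log2 fold change of -0.48 against WTAL (adjusted p = 0.0163 from limma) and of -0.59 against Dgat1-/-AL (adjusted p = 0.00894). Loxl4, a lysyl oxidase that crosslinks collagen, was at 5.86, 5.82 and 5.94 in WTCR, at 6.79, 6.96 and 6.60 in Dgat1-/-AL and at 7.01, 6.18 and 6.94 in WTAL livers. Its differences were -0.84 (adjusted p = 0.071) and -0.91 (adjusted p = 0.0534), with the array labelled WTAL replicate 2 the lowest of its group. Colgalt2, a collagen galactosyltransferase, was called at -0.46, but its mean of 4.39 was below the background bound. A further 4 genes had an unadjusted p under 0.05 in WTCR from limma and missed the fold minimum, in both directions. Colgalt1, a collagen galactosyltransferase, gave 0.28 and P4hb, a subunit of prolyl hydroxylase, 0.31 (unadjusted p = 0.0018 and 0.017 from limma). Serpinh1, the collagen chaperone of the endoplasmic reticulum, gave -0.29 and Pcolce2, an enhancer of procollagen processing, -0.30 (unadjusted p = 0.0272 and 0.0293 from limma). The median over the 26 genes was -0.02 in WTCR and 0.05 in Dgat1-/-AL.

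Of the 15 turnover genes measured (matrix metalloproteinases, their inhibitors and collagen proteases) none was called in either comparison with WTAL, and 9 lay above the background bound. Mmp19 gave the largest WTCR difference of the list, -0.43, and Mmp2, a gelatinase of stellate cells, gave -0.06. Of the 8 collagen receptors measured 1 was lower in WTCR, the leukocyte receptor Lair1 (-0.44, adjusted p = 0.145 from limma), and none was called in Dgat1-/-AL livers. Of 15 basement membrane partners (laminins, nidogens and others) Lama4, a laminin chain of blood vessels, was lower in WTCR. It was at 5.30, 4.77 and 5.19 in WTCR, at 5.51, 5.91 and 5.59 in Dgat1-/-AL and at 5.54, 5.51 and 5.52 in WTAL livers. The differences were -0.44 against WTAL and -0.58 against Dgat1-/-AL (adjusted p = 0.183 and 0.076 from limma). The WTCR values of 4.77 and 5.19 lie below 5.22, the background bound. Lama1, another laminin chain, gave -0.30 in WTCR against WTAL (unadjusted p = 0.00981 from limma) and missed the fold minimum. Hspg2, which encodes perlecan, and Pxdn, the peroxidase that crosslinks type IV collagen, gave 0.33 and 0.26 in Dgat1-/-AL livers (unadjusted p = 0.0149 and 0.00994 from limma) and missed the fold minimum.

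Genes of profibrotic signaling gave calls in both directions, but the only lower one lay below the background bound. Of the 16 TGF-beta and other profibrotic genes measured 4 were higher (against 4.25% of all probe sets) and 1 lower (against 3.81%) in WTCR than in WTAL, and 0 were called in Dgat1-/-AL livers. Ccn2 encodes connective tissue growth factor, a target of TGF-beta, and was at 8.09, 8.04 and 7.78 in WTCR, at 7.30, 7.55 and 7.55 in Dgat1-/-AL and at 7.39, 7.46 and 7.29 in WTAL livers. All WTCR arrays lay above all others (0.59 against WTAL, adjusted p = 0.0261, and 0.50 against Dgat1-/-AL, adjusted p = 0.0459, from limma). The receptor genes Tgfbr1 (0.41) and Tgfbr2 (0.39) and the signal transducer Smad4 (0.38) were also higher in WTCR, with adjusted p of 0.254, 0.256 and 0.199 from limma. Pdgfd, a ligand of platelet-derived growth factor receptors, was lower (-0.38) at a mean of 5.004, below the background bound. Smad2, another signal transducer, gave 0.34 and Pdgfb, another such ligand, 0.21 (unadjusted p = 0.00165 and 0.033 from limma), and both missed the fold minimum. Of the 7 genes of this list with an unadjusted p under 0.05 in WTCR, Pdgfd was the only lower one. Tgfb1 itself gave -0.05. Of the 16 WTCR values against WTAL 8 were positive and 8 negative, with a median of -0.02.

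Marker genes of the cells that make collagen were read beside these results, since in whole liver fewer cells of a type and less RNA per cell cannot be told apart. All 21 stellate cell and fibroblast markers measured lay above the background bound. In WTCR livers 5 of them were lower than in WTAL (against 3.81% of all probe sets) and 0 higher (against 4.25%), namely Hgf (-0.70), Lrat (-0.63), Reln (-0.50), Colec11 (-0.49) and Tcf21 (-0.49), with adjusted p of 0.0548 to 0.275 from limma. Lrat, the enzyme that stores retinoids in quiescent stellate cells, was at 7.58, 7.53 and 8.002 in WTCR, at 7.995, 8.77 and 8.28 in Dgat1-/-AL and at 8.48, 8.23 and 8.28 in WTAL livers. Acta2, the actin of activated stellate cells, gave -0.05. The platelet-derived growth factor receptor genes went in opposite directions, Pdgfrb at -0.28 and Pdgfra at 0.32 (unadjusted p = 0.0331 and 0.0277 from limma), and both missed the fold minimum. Of the 21 values 14 were negative and 7 positive. Dcn, which encodes a small proteoglycan of fibrils, gave 0.21 and was not called. Averaged over the 21 genes, each array differed from the WTAL mean by -0.18 to -0.11 in WTCR, by -0.05 to 0.01 in Dgat1-/-AL and by -0.02 to 0.01 in WTAL livers, so the WTCR arrays lay below all others. The part of these markers in the Col3a1 and Col14a1 results was not tested. In Dgat1-/-AL livers 1 stellate marker was called, Tcf21 (-0.61, lower, against 0.76% of all probe sets).

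Endothelial and macrophage markers also differed between groups. Over all probe sets the rule called 4.25% higher and 3.81% lower in WTCR than in WTAL livers. In Dgat1-/-AL livers it called 0.465% higher and 0.76% lower than in WTAL. The marker counts against WTAL are to be read beside these shares. Of 12 sinusoidal endothelial markers 3 were higher in Dgat1-/-AL than in WTAL livers (Stab1 by 0.85, Ptprb by 0.70 and Stab2 by 0.65) and 2 lower (Lyve1 by -0.64 and Clec4g by -0.56). In WTCR livers 1 was lower (Clec4g, -1.004, adjusted p = 0.00854 from limma). The arrays differed from the WTAL mean of this list by -0.54 to -0.01 in WTCR, by 0.04 to 0.37 in Dgat1-/-AL and by -0.13 to 0.11 in WTAL livers. Of 10 Kupffer cell and macrophage markers 3 were lower in both WTCR and Dgat1-/-AL livers (Adgre1, Clec4f and C1qa), and Cd163 was higher in WTCR (0.80). Over these 10 markers the arrays differed from the WTAL mean by -0.65 to 0.03 in WTCR and by -0.53 to -0.17 in Dgat1-/-AL. The WTAL arrays spanned -0.40 to 0.22, so all 3 groups overlapped. Of 6 mesothelial markers 1 was called, Upk3b, with -0.40 for Dgat1-/-AL against WTAL (lower) and 0.38 for WTCR against Dgat1-/-AL (higher, against 4.66% of all probe sets). In Dgat1-/-AL against WTAL all 6 values were negative (median -0.21), 3 of them at an unadjusted p under 0.05 from limma. Mean signals of these markers were low, at 5.08 to 6.07, and none passed the 6.16 bound. Among 7 cholangiocyte, 6 vascular smooth muscle and 5 adipocyte markers none was called against WTAL, and 4, 3 and 3 of them lay above the background bound. In WTCR against Dgat1-/-AL livers, where Col4a1 differed by -0.23, 9 of the 12 endothelial markers were lower (against 3.93% of all probe sets) and 1, Lyve1, was higher (0.75, against 4.66% of all called higher), with a median of -0.59 and 5 of the 12 at an adjusted p under 0.05 from limma. How far these markers bear on the small Col4a1 and Col4a2 differences was not tested.

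**Figure D4:**
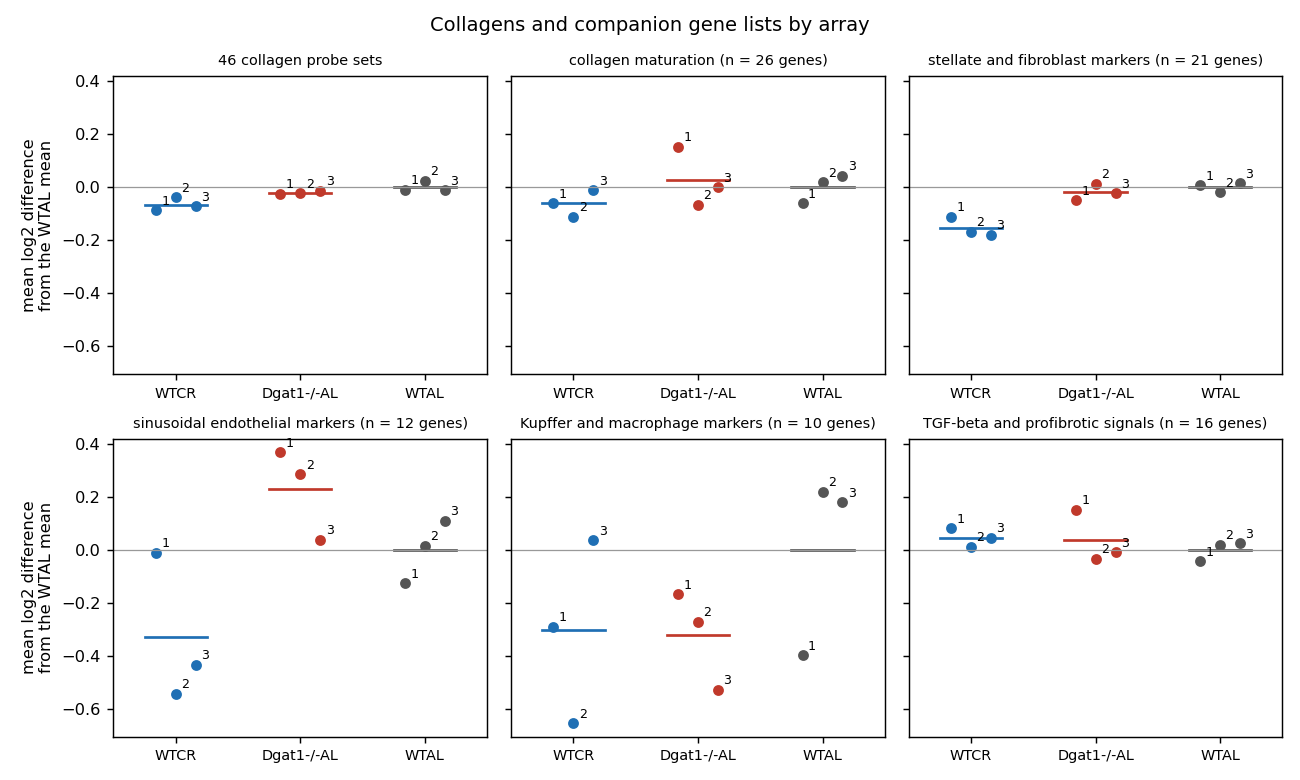
Distance of each array from the WTAL group on the log2 scale (y axis), averaged over the collagens or over 1 of 5 companion gene lists and grouped along the x axis, with points numbered by replicate and short lines for group means. Stellate and fibroblast markers are at -0.18 to -0.11 on the WTCR arrays, and the 46 collagen probe sets at -0.09 to -0.04 on the same arrays. This collagen average includes Col14a1 (-1.29) and Col3a1 (-0.55), and the median WTCR fold change over the collagens was -0.03. The collagens are at -0.025 to -0.014 on the Dgat1-/-AL arrays and at -0.013 to 0.023 on the WTAL arrays.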

How the data were processed

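RNA of 9 livers was hybridised to Affymetrix Mouse Gene 1.0 ST arrays, and the authors deposited log2 signals made with RMA, which corrects background, normalizes arrays by quantiles and summarizes the probes of each set. No array was left out, no filter was applied, and the labels give no batch. Probe sets were named from the platform annotation, and those with several symbols were not used as members. limma 3.58.1 in R 4.3.3 fitted 1 mean per group over all 28815 probe sets and 9 arrays (6 residual degrees of freedom). The same fit was tested on simulated data with independent normal noise, which was not built to hold the shared values described above. Tables were made in Python 3.11.15. Calls required a fold above 1.3 with p below 0.05 before adjustment. P-values were adjusted by Benjamini-Hochberg over all probe sets. Replicates are separate mice, and 3 per group limit the precision. Collagen probe sets above the background bound or called were named by rule. Col12a1, Col28a1 and the lower probe sets of Col6a5 and Col6a6, all below the bound, and some genes of the other lists were named after their values were seen. The collagens, the gene lists and the tests were chosen with earlier results of these data known. Replicate numbers of WTCR and Dgat1-/-AL arrays correlated with r of 0.211 to 0.477, but those with WTAL with r of -0.325 to 0.045, so they were not used as pairs. Promoter windows came from RefSeq (GRCm38.p6). The build behind the probe annotation is not given in the sources used here.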

Additional observations from a re-analysis of the deposited data

How the results depend on the processing

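The counts of 2 lower collagens in WTCR against WTAL, 0 in Dgat1-/-AL against WTAL and 1 in WTCR against Dgat1-/-AL were the same when near-background probe sets were left out of the fit, when only the arrays of the groups compared entered it, and with arrays centred on their medians, a trended robust variance prior, array weights or 1 probe set per gene. No collagen was called higher under any of these or of the settings below, and no called value changed sign. With no fold minimum, an unadjusted p called 3 lower in Dgat1-/-AL against WTAL (Col3a1, Col23a1 and a Col6a6 probe set) and 3 in WTCR against Dgat1-/-AL (Col14a1, Col3a1 and Col4a1), and an adjusted p under 0.05 called 2 in WTCR against Dgat1-/-AL. Leaving out 1 array at a time gave 2 lower collagens each time in WTCR against WTAL, 0 each time in Dgat1-/-AL against WTAL and 1 to 2 in WTCR against Dgat1-/-AL, where the 2 came without Dgat1-/-AL replicate 2 and added Col15a1. The adjusted p of Col14a1 passed 0.05 without WTAL replicate 3 in WTCR against WTAL (0.0583). The cause was not tested. The genes near background numbered 2, but 19 with the 99th percentile of the receptors and 12 with the median of all probe sets as the bound, since these bounds lie higher. With the replicate block in the fit the counts were again 2, 0 and 1, and Col3a1 in WTCR against WTAL had an adjusted p of 0.0283. Small differences between collagens near background are limited by signal, and those of all genes by 3 mice per group.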
